A study of Mus musculus with 12 samples.

Results

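The genes described here are 35 transcripts of the interferon response and of antigen presentation on MHC class I, followed across 12 Affymetrix arrays of kidney proximal tubules from mice aged 20 weeks. They were listed by symbol. Each was read from probe sets whose annotation gives 1 gene symbol, taking the one whose mean over the 12 arrays was highest, and kept where it lay above 4 (log2) on at least 3 arrays. Of the 35, 33 had such a probe set and 28 passed the filter, out of 9744 genes that passed in all. The other 5, Irf7, Stat2, Mx1, Mx2 and Usp18, lay below it. Isg15 was represented only by a probe set that carries several symbols and Ifi44 by no probe set in the annotation used here.

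Interferons are secreted proteins that bind receptors on the cell surface and, through JAK kinases and STAT and IRF transcription factors, switch on a shared set of genes. Some of these block viruses inside the cell, some are GTPases that attack the membranes around intracellular pathogens, and some raise the display of peptides on MHC class I. For that display the immunoproteasome cuts proteins into peptides, the TAP transporter carries them into the endoplasmic reticulum, tapasin loads them and the class I heavy chain carries them to the surface with beta-2 microglobulin. Tubule cells, endothelium and leukocytes of the kidney can all express these genes.

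The 4 groups had 3 arrays each, numbered 1 to 3 in the labels. They were wild-type mice, mice with a catalase transgene (catalase-Tg), dB/dB mice, and dB/dB mice that carry the transgene (dB/dB catalase-Tg), fed a normal diet, with tubules isolated by Percoll centrifugation. The dB/dB genotype is a loss of the leptin receptor that leads to obesity and diabetes, and catalase is the enzyme that breaks down hydrogen peroxide. The labels give neither the strain, the sex nor the promoter of the transgene, nor whether each sample came from its own animal, so a p-value here rests on the spread among samples that may be technical. Published work on such mice describes rat catalase driven by the promoter of Kap, an androgen-responsive gene of the tubule. The labels do not state it. Kap itself read 8.63, 11.70 and 15.23 in wild type and 8.46, 15.26 and 15.22 in catalase-Tg (arrays 1, 2 and 3). It read 13.59, 12.79 and 13.70 in dB/dB and 13.04, 15.29 and 14.62 in dB/dB catalase-Tg. Whether the level of the transgene followed Kap was not tested.

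On every array 36.9% to 38.6% of probe sets lay above 4 (log2), and the number of arrays limits the precision. All 8 proximal tubule markers checked were above the filter, and Slc34a1, the phosphate transporter of this segment, read 12.84 to 14.07. Markers of other kidney cells were present too. Above the filter were 10 of 10 endothelial, 4 of 5 podocyte and 5 of 5 loop of Henle and distal genes (the remaining podocyte gene had no probe set with 1 symbol). So were 4 of 6 mural and fibroblast, 3 of 5 collecting duct and 6 of 16 leukocyte and macrophage genes. A change in a transcript and a change in the share of cells that carry it thus cannot be told apart in these bulk samples. The female-transcribed Xist was at 11.91 on wild type 2, at 6.72 on wild type 3 and at no more than 2.67 on the remaining 10 arrays, while Eif2s3y, a Y-linked gene, lay at the floor of 2.30 on wild type 2 alone. Mouse Cat read 10.66 to 12.90 in no order of groups, and Lepr lay near the floor, so neither checks the labels.

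One array stood out in these genes. dB/dB catalase-Tg 1 was the highest of the 12 arrays for 22 of the 28 genes, against 6.15% of all 18144 probe sets tested. dB/dB 2 was second highest for 19 of the 28, a rank that was not counted over all probe sets. A score, taken as the mean over the 28 genes of each gene's level minus its own mean over the 12 arrays, was 2.01 (log2) on dB/dB catalase-Tg 1 and 1.01 on dB/dB 2. The other dB/dB catalase-Tg arrays scored -0.51 and -0.91 and the other dB/dB arrays 0.07 and -0.13. Wild type scored 0.35, 0.31 and -0.20 and catalase-Tg -0.28, -0.92 and -0.80. Every catalase-Tg array thus lay below every wild-type array on this score, while dB/dB catalase-Tg held both the highest of the 12 and, next to catalase-Tg 2, the second lowest.

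**Figure D1:**
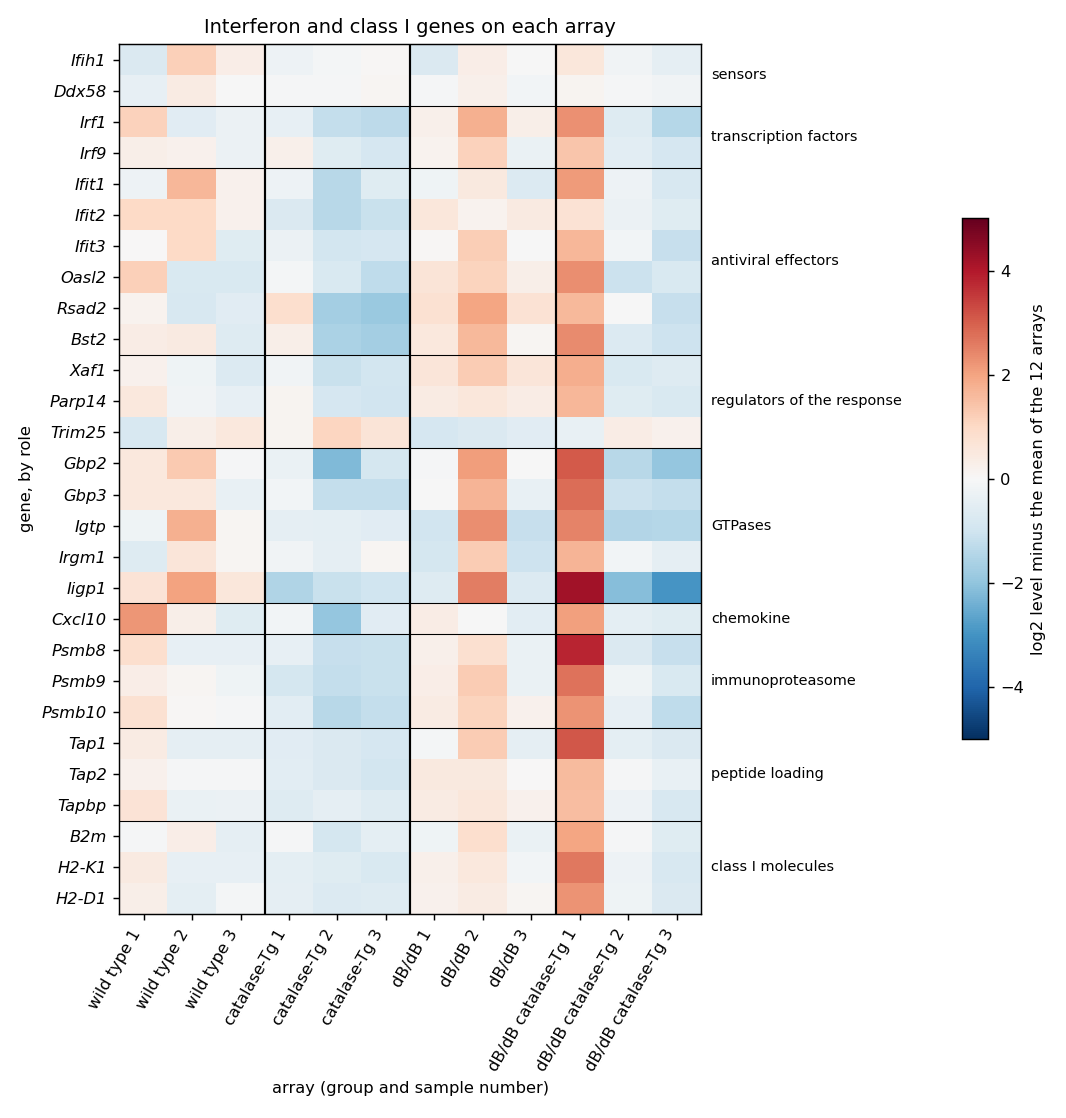
Heat map of the log2 level of each of the 28 genes on each array, minus the mean of the 12 arrays, with genes ordered by role and arrays by group. The colours run from blue (below the mean) to red (above it). dB/dB catalase-Tg 1 is red in most rows and the 3 catalase-Tg arrays are mostly blue.

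For 27 of the 28 genes the widest range inside 1 group was larger than the range of the 4 group means, which also held for 16670 of the 18144 probe sets. The widest group was dB/dB catalase-Tg for 23 of the 28, or 82.1%, against 33.5% of all probe sets. The median range over the 12 arrays was 3.47 (log2), against 1.35 for all probe sets. Ifit2 was the gene whose group means (range 1.82) differed by more than any group's own arrays (at most 1.35).

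The comparison of dB/dB with wild type asks what the dB/dB genotype does to these genes in mice without the transgene. Of the 28 genes 20 had a higher mean and 8 a lower mean in dB/dB, with a median difference of 0.28 (log2), against -0.11 over all probe sets. Rsad2, an antiviral enzyme, and Xaf1, a promoter of cell death, were the 2 whose groups did not overlap, both higher in dB/dB, while 11.4% of all probe sets did not overlap. In limma's test 0 of the 28 passed (lowest adjusted p = 0.767), and 0% of all probe sets passed. At an unadjusted p under 0.05 there were 0 of the 28 and 4.16% of all probe sets. The median turned to -0.10 without dB/dB 2, with 11 genes above 0 and 17 below. When the 3 arrays to which limma gave the lowest weights (number 1 of wild type, of catalase-Tg and of dB/dB catalase-Tg) were left out, 6 of the 28 and 26.9% of all probe sets passed.

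Set against wild type, catalase-Tg compares mice with and without the transgene that are not dB/dB, but these arrays differ in more than the transgene. Xist was at most 2.67 in catalase-Tg but reached 6.72 or more in arrays 2 and 3 of wild type. The score of the 8 proximal tubule markers was -1.90 in array 1 of wild type. Which of these lies behind a difference was not tested. The same wild-type arrays enter dB/dB against wild type, the interaction and the averages. In catalase-Tg 27 of the 28 means were lower and 1, Trim25, was higher, with a median difference of -0.67 against -0.02 over all probe sets. For 10 of the 28 all 3 catalase-Tg arrays lay below all 3 wild-type arrays, namely Ifit2, Gbp2, Igtp, Iigp1, Psmb9, Psmb10, Tap1, Tap2, Tapbp and H2-K1. That arrangement held for 7.80% of all probe sets, and 13.5% did not overlap in either direction. In limma's test 0 of the 28 and 0.0220% of all probe sets passed. The spread in this test is shared by all 4 groups, so the SE also holds the spread inside dB/dB catalase-Tg. At an unadjusted p under 0.05 there was 1 of the 28, beside 9.15% of all probe sets. That gene was Ifit2, with a difference of -1.82 (SE 0.36, limma adjusted p = 0.309), lower in 3 of 3 arrays. The median ran between -0.96 and -0.54 when single arrays were left out. Without wild type 2 and wild type 3, the arrays with Xist, it was -1.08 and Ifit2 passed (-2.07, limma adjusted p = 0.0304; its adjusted p over the alternatives ran from 0.0304 to 0.755), as did 2180 of the 18144 probe sets. That fit leaves 1 wild-type array, which is assumed to vary like the other groups, and 4 of the 28 means were then above 0.

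For the transgene in dB/dB mice, dB/dB catalase-Tg against dB/dB, the genes showed no common direction. Of the 28, 12 means were higher and 16 lower, with a median of -0.21 against -0.02 over all probe sets. Trim25 was the 1 gene without overlap, higher in dB/dB catalase-Tg, while 16.0% of all probe sets did not overlap. In limma's test 0 of the 28 passed (lowest adjusted p = 0.636), and 0.00551% of all probe sets passed. At an unadjusted p under 0.05 there were 0 of the 28 and 7.50% of all probe sets. This comparison depended on dB/dB catalase-Tg 1: without it 27 of the 28 means were lower, the median was -0.97, and 0 passed (lowest adjusted p = 0.189). The median was 0.20 without dB/dB 2 or without dB/dB catalase-Tg 2 and 0.39 without dB/dB catalase-Tg 3. With array weights 12 of the 28 passed, 11 of them lower, as did 38.5% of all probe sets, 19.3% of them in the lower direction counted over all tested. Without the 3 arrays of low weight 12 passed, again 11 lower, beside 27.8% of all probe sets, and 11.7% were called lower.

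For dB/dB in transgenic mice, dB/dB catalase-Tg against catalase-Tg, 26 of the 28 means were higher, with a median of 1.01 against -0.10 over all probe sets. Ifit2, Psmb9 and Tap2 were the 3 genes without overlap, all higher in dB/dB catalase-Tg, and 16.0% of all probe sets did not overlap. In limma's test 0 of the 28 and 0.0276% of all probe sets passed. At an unadjusted p under 0.05 there were 2 of the 28, beside 6.86% of all probe sets. They were Ifit2 (1.02, SE 0.36, adjusted p = 0.682) and Tap2 (1.10, SE 0.42, adjusted p = 0.698), each higher in 3 of 3 arrays. Without dB/dB catalase-Tg 1 the median was 0.03, with 15 genes above 0 and 13 below. With array weights 1 of the 28, Ifit2, and 4.87% of all probe sets passed.

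These comparisons share groups, so their values are not independent. The difference between both transgene comparisons was tested as an interaction. Its median was 0.76 over the 28 genes, against 0.01 over all probe sets. Like the averages, it holds dB/dB catalase-Tg 1, whose removal moved the comparisons above. Its median without that array is not given here. Over the alternatives the interaction of Gbp2 ran from -0.59 to 1.92 and that of H2-K1 from -0.44 to 1.49. That of Ifit2 stayed above 0 (0.96 to 1.64). None of the 28 passed in limma's fit (0.00551% of all probe sets did), and 1, Ifit2, had an unadjusted p under 0.05 (1.36, SE 0.50, adjusted p = 1), as had 1.64% of all probe sets. Averaged over both genotypes, the transgene difference had a median of -0.46, with 26 of 28 below 0. Over all probe sets the median was -0.02, with 47.1% above 0. Of the 28, 0 passed against 0.0276% of all probe sets, and 2 had an unadjusted p under 0.05, Ifit2 (-1.14, SE 0.25, adjusted p = 0.172) and Trim25 (0.68, SE 0.26, adjusted p = 0.224), beside 18.1% of all probe sets. With array weights 11 of the 28 and 26.4% of all probe sets passed in this average, without the 3 arrays of low weight 15 and 20.5%, and without wild type 2 and wild type 3, 2 and 18.6%. The average dB/dB difference had a median of 0.56, with 24 of 28 above 0. Over all probe sets the median was -0.10, with 36.7% above 0. Again 0 of the 28 passed, against 0.0165%, and 4 had an unadjusted p under 0.05, namely Trim25, Tap2, Rsad2 and Xaf1, beside 12.2% of all probe sets. With array weights 1, Trim25, and 10.9% of all probe sets passed. Without the 3 arrays of low weight 6 of the 28 and 19.4% of all probe sets passed.

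**Figure D2:**
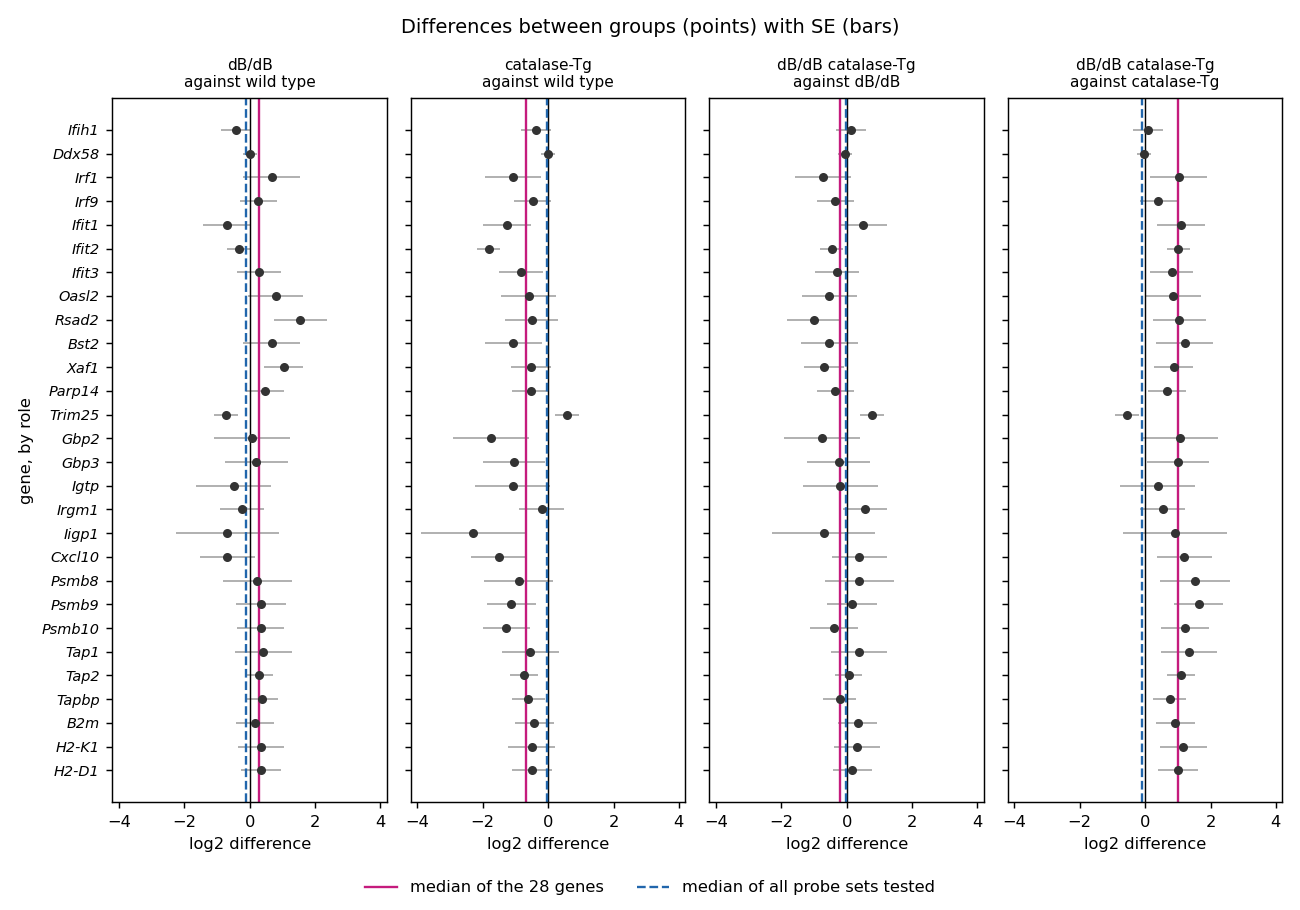
Difference of group means in log2 (points) with its standard error from limma (bars) for each of the 28 genes in the 4 comparisons between groups. The solid line is the median of the 28 genes and the dashed line that of all 18144 probe sets. In catalase-Tg against wild type 27 points lie left of 0, and in dB/dB catalase-Tg against catalase-Tg 26 lie right of it.

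The upstream sequences of several of these genes carry short motifs known from interferon signalling, and are printed as background. The genes were listed as members of this response. An excess of such motifs thus follows from the choice of genes and is not a result of these arrays. The interferon-stimulated response element, bound by IRF factors, was searched as GAAANNGAAA and the gamma-activated site, bound by STAT dimers, as TTCNNNGAA, on both strands of the 250 bases before each RefSeq start (GRCm38.p6). The response element was present in 12 of 34 windows of the listed genes (35.3%) and in 2.98% of all 32851 windows, and the gamma-activated site in 5 of 34 (14.7%) and in 7.02%. A form of the response element with 1 base in the middle, GAAANGAAA, was in 4 of 34 windows (11.8%) and 2.68% of all. The search also covered 3 exact forms of the kB site, bound by NF-kB. The first was in 1 window, that of B2m, and in 0.36% of all, the second in 3 windows of H2-K1 and H2-D1 (8.8%) and in 0.09% of all, and the third in 0 and in 0.04%. A match is a description of letters and not a site shown to be used. Forms that differ from these letters, or lie outside the windows, were not counted. A lack of matches thus does not show that an element is missing. The 160 bases before the start of 9 genes, chosen after their matches had been seen, are given 5′ to 3′ on the gene's strand, with matches in capitals. In Igtp the gamma-activated site comes first, in B2m the response element comes first and the kB site second, in H2-K1 the capitals are the kB site, in Irf1 and Psmb8 they are gamma-activated sites, and elsewhere response elements, of which Irgm1 has 2 that overlap. The last line is the whole 225-base stretch between the starts of Psmb9 and Tap1, which are transcribed away from each other, and holds 0 matches to the first pair of motifs or the kB forms.
Gbp2, chr3:142620503-142620662, plus strand: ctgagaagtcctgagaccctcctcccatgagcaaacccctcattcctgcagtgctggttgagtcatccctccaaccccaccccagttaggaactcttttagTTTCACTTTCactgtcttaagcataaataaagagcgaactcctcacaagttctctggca
Igtp, chr11:58199396-58199555, plus strand: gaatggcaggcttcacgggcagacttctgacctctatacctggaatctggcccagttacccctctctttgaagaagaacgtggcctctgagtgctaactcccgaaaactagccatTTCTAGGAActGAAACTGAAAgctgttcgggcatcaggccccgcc
Irgm1, chr11:48871421-48871580, minus strand: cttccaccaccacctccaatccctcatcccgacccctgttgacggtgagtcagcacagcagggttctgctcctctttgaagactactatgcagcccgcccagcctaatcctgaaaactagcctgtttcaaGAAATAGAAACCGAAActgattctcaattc
Ifit3, chr19:34583369-34583528, plus strand: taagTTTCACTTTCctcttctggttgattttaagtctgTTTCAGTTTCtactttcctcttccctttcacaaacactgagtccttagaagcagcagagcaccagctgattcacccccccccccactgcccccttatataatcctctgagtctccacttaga
Rsad2, chr12:26456453-26456612, minus strand: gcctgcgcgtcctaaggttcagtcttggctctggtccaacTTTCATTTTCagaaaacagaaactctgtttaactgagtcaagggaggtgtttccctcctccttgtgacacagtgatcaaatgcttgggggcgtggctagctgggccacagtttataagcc
B2m, chr2:122147527-122147686, plus strand: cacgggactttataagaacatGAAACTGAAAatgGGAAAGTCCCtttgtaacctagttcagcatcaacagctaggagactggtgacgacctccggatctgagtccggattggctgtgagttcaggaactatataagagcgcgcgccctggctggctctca
H2-K1, chr17:34000348-34000507, minus strand: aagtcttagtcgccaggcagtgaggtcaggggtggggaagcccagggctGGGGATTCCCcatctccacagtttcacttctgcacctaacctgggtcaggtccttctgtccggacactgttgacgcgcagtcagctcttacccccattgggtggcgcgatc
Irf1, chr11:53769854-53770013, plus strand: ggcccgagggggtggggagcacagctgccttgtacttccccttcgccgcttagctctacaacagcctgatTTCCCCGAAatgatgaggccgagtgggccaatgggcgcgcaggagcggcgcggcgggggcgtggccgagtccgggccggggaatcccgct
Psmb8, chr17:34198035-34198194, plus strand: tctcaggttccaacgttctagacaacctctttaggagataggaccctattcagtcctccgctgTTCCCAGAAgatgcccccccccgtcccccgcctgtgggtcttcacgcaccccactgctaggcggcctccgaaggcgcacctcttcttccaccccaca
Psmb9 to Tap1, chr17:34187331-34187555, plus strand: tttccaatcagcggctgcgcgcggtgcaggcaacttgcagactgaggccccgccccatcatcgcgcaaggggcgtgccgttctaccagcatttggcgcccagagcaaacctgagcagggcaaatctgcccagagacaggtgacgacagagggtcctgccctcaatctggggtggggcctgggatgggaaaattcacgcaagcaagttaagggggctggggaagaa

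Several of the listed genes share a chromosome. Of the 35, 7 in RefSeq's gene annotation, Psmb8, Psmb9, Tap1, Tap2, Tapbp, H2-K1 and H2-D1, are on chromosome 17, where the mouse MHC lies. Another 5 are on chromosome 11 and the 3 Ifit genes on chromosome 19.

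Both cytosolic RNA sensors overlapped between all groups. Ifih1, which encodes the sensor of long double-stranded RNA MDA5, read 5.90, 7.82 and 6.94 in wild type (arrays 1, 2 and 3, the order used throughout) and 6.36, 6.54 and 6.66 in catalase-Tg. It read 5.89, 6.95 and 6.60 in dB/dB and 7.18, 6.46 and 6.16 in dB/dB catalase-Tg. Wild type 2 was the highest array and the groups overlapped. Ddx58, which encodes RIG-I, had group means of 5.64 to 5.70 and had its lowest value (5.29) and its highest (6.11) in wild type, on arrays 1 and 2. Its differences ran from -0.05 to 0.01 in the 4 comparisons between groups (SE 0.22).

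The transcription factors followed the common pattern of single arrays. Irf1, the factor induced by interferon-gamma whose gene carries the gamma-activated site printed above, read 6.66, 4.95 and 5.22 in wild type and 5.09, 4.32 and 4.18 in catalase-Tg. It read 5.76, 7.29 and 5.79 in dB/dB and 7.78, 4.84 and 4.05 in dB/dB catalase-Tg. The highest and the lowest of the 12 values are thus both in dB/dB catalase-Tg, and its difference from dB/dB was -0.72 (SE 0.87, adjusted p = 0.772). Irf9, the DNA-binding part of the complex formed with STAT proteins, had group means of 4.73 to 5.48. Below the filter, Irf7, the factor that amplifies type I interferon production, read 5.25 on dB/dB catalase-Tg 1 and at most 2.90 on the other 11 arrays. Stat2, a partner of Irf9, read 2.81 to 4.38, highest on dB/dB catalase-Tg 1 and, at 4.32, on catalase-Tg 1.

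The 6 antiviral effectors above the filter had their lowest group means in catalase-Tg. Ifit2 was the 1 of them whose catalase-Tg and wild-type arrays did not overlap. Ifit2, one of a family that binds viral RNA and limits translation, read 5.75, 5.77 and 4.98 in wild type and 4.05, 3.36 and 3.65 in catalase-Tg. It read 5.33, 4.93 and 5.23 in dB/dB and 5.49, 4.48 and 4.14 in dB/dB catalase-Tg. The 3 catalase-Tg arrays were the 3 lowest of the 12. How often this holds over all probe sets was not counted, here or for the genes below. The means were 5.50 ± 0.45 (SD, n = 3), 3.68 ± 0.34, 5.17 ± 0.21 and 4.70 ± 0.70 in the order above. Ifit1, of the same family, read 3.43, 5.33 and 3.89 in wild type, 3.43, 2.30 and 3.10 in catalase-Tg, 3.46, 4.16 and 3.00 in dB/dB and 5.80, 3.43 and 2.88 in dB/dB catalase-Tg. It was above 4 on 3 arrays, each in a different group, and all groups overlapped. Its difference in catalase-Tg against wild type was -1.27 (SE 0.73, adjusted p = 0.61). Ifit3 had group means of 5.92 in catalase-Tg to 7.02 in dB/dB.

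Of the 6 listed antiviral effectors above the filter, Rsad2 had the largest difference in dB/dB against wild type. Rsad2 encodes viperin, an enzyme that makes a chain-terminating nucleotide. It read 8.47, 7.52 and 7.73 in wild type and 9.07, 10.26 and 9.04 in dB/dB, so that the lowest dB/dB array was above the highest wild-type array. The catalase-Tg arrays read 9.16, 6.61 and 6.43 and the dB/dB catalase-Tg arrays 9.92, 8.28 and 7.14, each group with its first array far above the others. The difference between dB/dB and wild type was 1.55 (SE 0.81, limma adjusted p = 0.767), positive in 3 of 3 arrays, and 1.07 to 1.55 over the 3 Rsad2 probe sets above the filter. Bst2, the tetherin that holds budding virus at the cell surface, ranged from 3.32 to 7.39, and Oasl2, a relative of the oligoadenylate synthetases, from 2.32 to 5.90, both highest on dB/dB catalase-Tg 1. Mx1 and Mx2, GTPases that act on viral nucleoproteins, lay at or next to the floor of 2.30 on all 12 arrays.

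Trim25 was the 1 gene of the 28 with a higher mean in catalase-Tg than in wild type. It encodes a ubiquitin ligase that acts on RIG-I. It read 7.54, 8.63 and 8.87 in wild type, 8.45, 9.41 and 8.96 in catalase-Tg, 7.50, 7.59 and 7.78 in dB/dB and 7.94, 8.69 and 8.54 in dB/dB catalase-Tg. All dB/dB arrays lay below all dB/dB catalase-Tg arrays, a difference of 0.76 (SE 0.37, limma adjusted p = 0.636), and dB/dB against wild type gave -0.72 (SE 0.37, adjusted p = 0.767). A second Trim25 probe set gave 0.83 and -0.88. Wild type 1 read with the dB/dB arrays. Without wild type 1 the average dB/dB difference of Trim25 passed (limma adjusted p = 0.0431), the 1 gene of the 28 to do so, as did 6.87% of all probe sets.

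Xaf1 shared the pattern of Rsad2 in dB/dB. It read 5.68, 5.24 and 4.77 in wild type and 6.07, 6.70 and 6.04 in dB/dB, without overlap, a difference of 1.04 (SE 0.60, limma adjusted p = 0.767) that was positive in 3 of 3 arrays. The catalase-Tg arrays read 5.25, 4.33 and 4.54 and the dB/dB catalase-Tg arrays 7.26, 4.67 and 4.81. Without dB/dB catalase-Tg 1 the transgene difference in dB/dB was -1.53 (SE 0.35, adjusted p = 0.189). Parp14, an ADP-ribosyltransferase, had dB/dB values of 4.95 to 5.11 and ranged from 3.59 to 6.23 over the 12 arrays. Usp18, the protease that removes ISG15 from proteins and dampens receptor signalling, was below the filter. Its wild-type arrays lay at 3.40 to 4.09 and its catalase-Tg arrays at 2.30 to 3.34, with a difference of -0.91 and an exact permutation p of 0.1 (two-sided), the smallest that 3 against 3 arrays can give.

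Among the interferon-inducible GTPases, Iigp1 and Gbp2 had the widest ranges of the 28 genes, and Irgm1 had a range of 2.71, below their median. Gbp2, a guanylate-binding protein whose upstream sequence holds the response element shown, read 6.24, 7.02 and 5.63 in wild type and 5.36, 3.49 and 4.82 in catalase-Tg, without overlap. It read 5.63, 7.78 and 5.68 in dB/dB and 8.78, 4.32 and 3.76 in dB/dB catalase-Tg. The catalase-Tg difference was -1.74 (SE 1.17, adjusted p = 0.661), and the second Gbp2 probe set gave -1.69. In dB/dB against wild type the 2 probe sets differed in sign, at 0.07 and -0.46. Irgm1, which acts on vacuoles that hold pathogens, read 7.35, 8.61 and 8.08 in wild type, 7.81, 7.56 and 8.08 in catalase-Tg, 7.11, 9.28 and 6.96 in dB/dB and 9.67, 7.86 and 7.52 in dB/dB catalase-Tg. All 4 groups overlapped. Igtp read 6.07 to 6.21 in catalase-Tg and 5.21 to 9.15 in dB/dB catalase-Tg. Iigp1 had the largest range of the 28 genes, 7.12 (log2), from 3.53 on dB/dB catalase-Tg 3 to 10.65 on dB/dB catalase-Tg 1. For 4 of the 5 GTPases wild type 2 was the highest wild-type array, and for 5 of 5 dB/dB 2 was the highest dB/dB array. Gbp3, the remaining one, was 5.48 on wild type 1 and 5.47 on wild type 2.

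Cxcl10, the chemokine that draws activated T cells, was highest on wild type 1. It read 6.69, 4.76 and 3.86 in wild type, 4.34, 2.56 and 3.90 in catalase-Tg, 4.84, 4.45 and 3.95 in dB/dB and 6.54, 3.97 and 3.88 in dB/dB catalase-Tg. The difference of catalase-Tg from wild type was -1.50 (SE 0.85, adjusted p = 0.607), and the groups overlapped.

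The 3 immunoproteasome subunits had lower means in catalase-Tg than in wild type and were highest on dB/dB catalase-Tg 1. Psmb8 read 6.17, 4.93 and 4.93 in wild type, 4.94, 4.18 and 4.23 in catalase-Tg, 5.60, 6.15 and 5.0 in dB/dB and 9.13, 4.60 and 4.18 in dB/dB catalase-Tg. Its value on dB/dB catalase-Tg 1 was 2.96 (log2) above the next array, the largest such gap of the 28 genes. The other dB/dB catalase-Tg arrays were below every dB/dB array.

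Psmb9, whose start lies on the stretch shared with Tap1, read 4.92, 4.71 and 4.38 in wild type, 3.71, 3.41 and 3.50 in catalase-Tg, 4.94, 5.85 and 4.26 in dB/dB and 7.33, 4.38 and 3.83 in dB/dB catalase-Tg. Its 3 catalase-Tg arrays were the 3 lowest of the 12. The difference from wild type was -1.13 (SE 0.75, adjusted p = 0.66), and dB/dB catalase-Tg against catalase-Tg gave 1.63 (SE 0.75, limma adjusted p = 0.726). Psmb10 read 5.88, 5.19 and 5.06 in wild type and 4.61, 3.76 and 3.93 in catalase-Tg, without overlap, a difference of -1.28 (SE 0.73, adjusted p = 0.608). It read 5.55, 6.25 and 5.34 in dB/dB and 7.38, 4.72 and 3.86 in dB/dB catalase-Tg. The constitutive subunits that these replace, Psmb5, Psmb6 and Psmb7, were above the filter on all 12 arrays and ranged over 9.81 to 10.73, 10.33 to 10.82 and 10.65 to 11.25.

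The 3 transporter and loading genes also had lower means in catalase-Tg than in wild type and were highest on dB/dB catalase-Tg 1. Tap1 read 5.12, 4.27 and 4.29 in wild type, 4.15, 4.00 and 3.91 in catalase-Tg, 4.65, 6.02 and 4.29 in dB/dB and 7.83, 4.26 and 4.01 in dB/dB catalase-Tg. Tap2, the other part of the transporter, read 5.15, 4.89 and 4.88 in wild type, 4.41, 4.24 and 4.04 in catalase-Tg, 5.42, 5.43 and 4.95 in dB/dB and 6.52, 4.88 and 4.58 in dB/dB catalase-Tg. For both genes all catalase-Tg arrays were below all wild-type arrays, and for Tap2 they were the 3 lowest of the 12. The Tap2 difference was -0.74 (SE 0.42, adjusted p = 0.607) and that of Tap1 -0.54 (SE 0.86, adjusted p = 0.864). Tapbp, which encodes tapasin, read 8.95, 7.93 and 7.99 in wild type, 7.63, 7.81 and 7.63 in catalase-Tg, 8.66, 8.83 and 8.48 in dB/dB and 9.81, 8.02 and 7.48 in dB/dB catalase-Tg. Its catalase-Tg arrays again lay below all wild-type arrays, with a difference of -0.60 (SE 0.50, adjusted p = 0.724).

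The 3 class I genes were likewise highest on dB/dB catalase-Tg 1. B2m, beta-2 microglobulin, read 12.26, 12.66 and 11.87 in wild type, 12.27, 11.44 and 11.82 in catalase-Tg, 12.09, 13.18 and 12.01 in dB/dB and 14.30, 12.27 and 11.72 in dB/dB catalase-Tg. H2-K1, a class I heavy chain, read 10.71, 9.86 and 9.88 in wild type, 9.78, 9.65 and 9.50 in catalase-Tg, 10.53, 10.82 and 10.14 in dB/dB and 12.93, 10.04 and 9.48 in dB/dB catalase-Tg. H2-D1, another heavy chain, read 10.71, 9.91 and 10.33 in wild type, 9.98, 9.72 and 9.78 in catalase-Tg, 10.63, 10.83 and 10.53 in dB/dB and 12.64, 10.19 and 9.68 in dB/dB catalase-Tg. On dB/dB catalase-Tg 1 these genes stood 1.13, 2.11 and 1.81 (log2) above the next array, which was dB/dB 2 each time. H2-K1 did not overlap between catalase-Tg and wild type (-0.51, SE 0.71, adjusted p = 0.843). H2-D1 and B2m did (-0.49, SE 0.60, adjusted p = 0.815, and -0.42, SE 0.59, adjusted p = 0.844). These SEs also hold the spread inside dB/dB catalase-Tg. There the SD of H2-K1 was 1.85, against 0.49 in wild type and 0.14 in catalase-Tg. The probe sets of H2-K1 and H2-D1 are of a design that can match related sequences, and class I genes differ between mouse strains, so the level of either gene alone is uncertain. Over the 3 H2-K1 probe sets above the filter the catalase-Tg difference was -0.56 to -0.44, and over the 5 of H2-D1 it was -1.09 to -0.31.

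**Figure D3:**
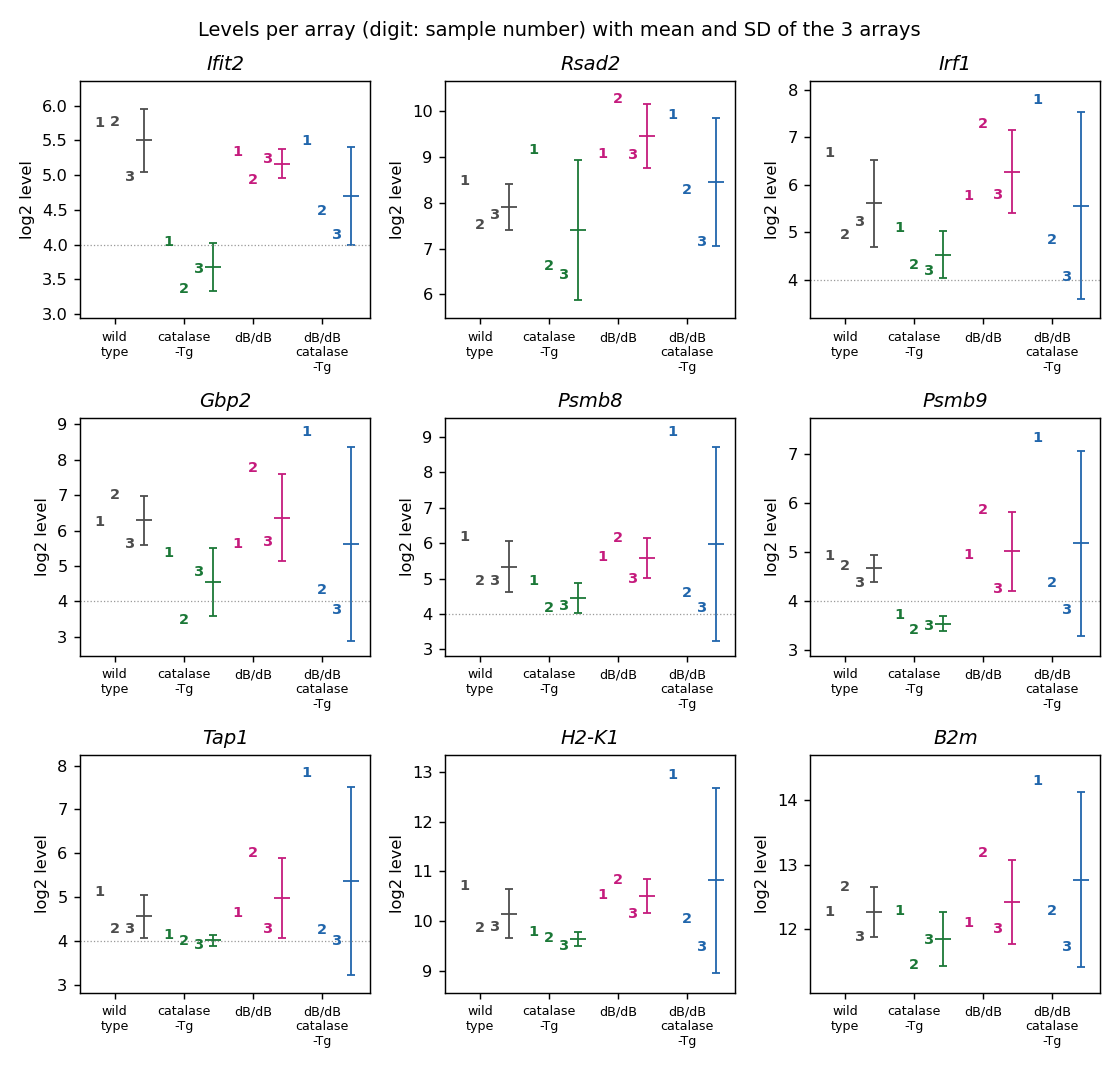
Log2 level of 9 of the genes on each array, with the digit giving the sample number and the cross bar the mean and SD of the 3 arrays of a group. The dotted line marks the filter at 4. In most panels dB/dB catalase-Tg 1 stands above its group and dB/dB 2 above the other dB/dB arrays, while the catalase-Tg arrays are low and close together.

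Within wild type the highest array differed between genes. Wild type 1 was the highest wild-type array for 16 of the 28 genes. These were 3 of 3 immunoproteasome, 3 of 3 loading, 2 of 3 class I, 2 of 2 transcription factor and 2 of 3 regulator genes. Cxcl10, 2 of 6 antiviral effectors and 1 of 5 GTPases were the others. Wild type 2, the array with the most Xist, was highest for 11. These were 2 of 2 sensors, 4 of 6 antiviral effectors, 4 of 5 GTPases and B2m. Over all probe sets wild type 1 and wild type 2 were highest of their group for 42.7% and 35.3%, so the count for wild type 2 is close to its share. In catalase-Tg array 1 was highest for 22 of 28, in dB/dB array 2 for 25 of 28, and in dB/dB catalase-Tg array 1 for 27 of 28, where all probe sets gave 35.7%, 22.1% and 31.9%.

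Markers of other cells differed between the arrays, in part along with the 28 genes. For the 10 endothelial markers the score was 1.56, -1.47 and -0.04 in wild type and -0.18, -1.73 and -1.64 in catalase-Tg. It was 1.34, 0.87 and 1.80 in dB/dB and 1.47, -0.73 and -1.24 in dB/dB catalase-Tg. The dB/dB arrays were thus high in endothelial markers and the catalase-Tg arrays low, and dB/dB catalase-Tg 1 stood apart from its group in both lists. Within dB/dB, array 2 had the lowest endothelial score and the highest score of the 28 genes. Wild type 1 had the highest endothelial score of its group and was its highest array for 16 of the 28. Wild type 2, highest for 11 of the 28, had the lowest endothelial score there. In each group with the transgene, array 1 led in the endothelial score and in that of the 28 genes. The score of the 5 markers of the loop of Henle and distal tubule was 1.53, -1.84 and 0.37 in wild type, -2.24, -1.54 and -1.59 in catalase-Tg, 1.39, 1.13 and 1.19 in dB/dB, and 1.03, 0.29 and 0.27 in dB/dB catalase-Tg. The score of the 8 proximal tubule markers was -1.90 on wild type 1 and -0.53 to 0.73 on the other 11 arrays. With the endothelial score as a covariate the median difference of the 28 genes was -0.30 in dB/dB against wild type, with 25 of 28 below 0, and -0.15 in catalase-Tg against wild type, with 19 below. In dB/dB catalase-Tg against dB/dB it was 0.48, with 25 above 0, and against catalase-Tg 0.40, with 27 above. Of all probe sets 43.8%, 40.0%, 36.9% and 44.1% were above 0 in these comparisons, in that order. The score itself differed between the groups, and dB/dB catalase-Tg 1 was high in both lists. The fits thus cannot separate the score from a group difference. None of the 28 passed in any of these fits (lowest adjusted p = 0.276, Ifit2 in catalase-Tg against wild type).

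Leukocyte genes were partly present. The score of the 6 leukocyte and macrophage markers above the filter was 0.83, -0.96 and 0.03 in wild type, 0.72, -0.92 and -0.83 in catalase-Tg, -0.30, 1.09 and -0.02 in dB/dB and 0.71, 0.48 and -0.82 in dB/dB catalase-Tg. It was highest on dB/dB 2. With it as a covariate the 4 medians were 0.10, -0.53, -0.12 and 0.61 in the order given above, and 0 of the 28 passed. Of 6 T and NK cell markers 0 were above the filter, with summed levels (log2) of 4.96 to 5.0 for wild type, 4.99 to 5.13 for catalase-Tg, 4.97 to 5.42 in dB/dB and 4.97 to 5.97 in dB/dB catalase-Tg. Gzma, a granzyme of cytotoxic cells, read 4.65 on dB/dB catalase-Tg 1 and 3.93 on dB/dB 2 and at most 2.40 on the other 10 arrays. Cd3e, part of the T cell receptor complex, read 3.53 on dB/dB catalase-Tg 1 and at most 2.60 elsewhere, Cd3g lay at the floor on all 12, and Cd8a read at most 2.81. Of the 8 macrophage markers, Csf1r (5.61 to 7.34) and Lyz2 (3.36 to 7.99) were above the filter. They were highest on wild type 3 and catalase-Tg 1, in that order. Adgre1 and Mpeg1 were highest on dB/dB 2 (3.98 and 4.64), and C1qa and C1qb on dB/dB catalase-Tg 2 (3.49 and 4.28). Cx3cr1 read at most 2.41 and Cd68 at most 2.32. Siglech and Ccr9, markers of plasmacytoid dendritic cells, read at most 2.60. The part of these cell markers in the pattern of the 28 genes was not tested.

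**Figure D4:**
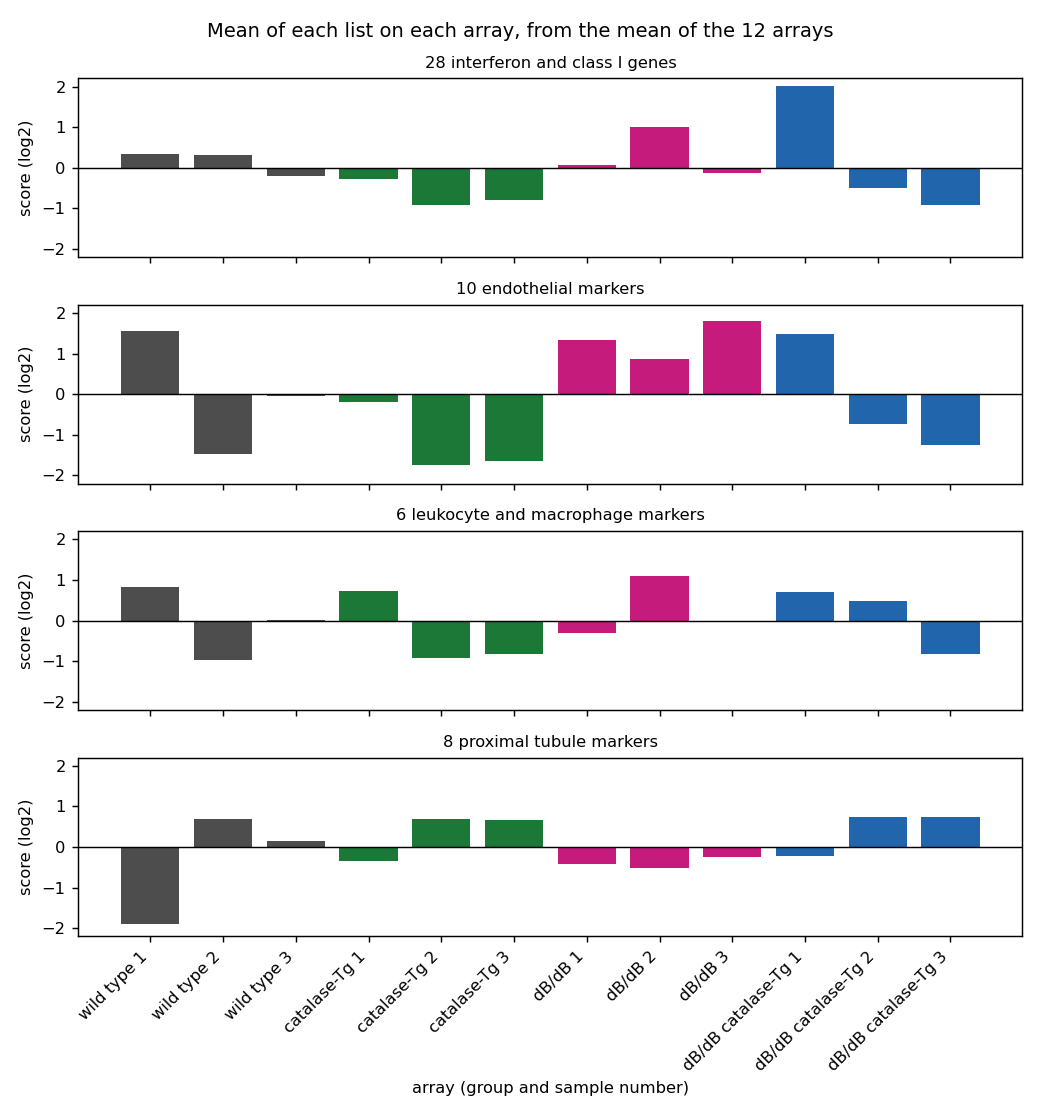
Score of the 28 genes and of 3 marker lists on each array, as the mean over the list of the log2 level minus the mean of the 12 arrays. The 28 genes are highest on dB/dB catalase-Tg 1 (2.01) and dB/dB 2 (1.01), where endothelial markers are at 1.47 and 0.87. Endothelial markers are above 0.87 too on dB/dB 3 (1.80), wild type 1 (1.56) and dB/dB 1 (1.34). There the 28 genes are at -0.13, 0.35 and 0.07. Both lists are lowest on catalase-Tg 2, at -0.92 for the 28 genes and -1.73 for endothelial markers.

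The rest of the pathway was taken as a list of 60 further genes, of which 38 were above the filter, 16 below it and 6 had no probe set with 1 symbol. Of the ligands, Ifnb1 read at most 2.70 and Ifng lay at the floor on all 12 arrays, while the receptor chains Ifnar1, Ifnar2 and Ifngr1 were above the filter. In limma's test 0 of the 38 passed in any of the 7 comparisons. At an unadjusted p under 0.05 there were 0 in dB/dB against wild type, 0 in catalase-Tg against wild type, 1 in dB/dB catalase-Tg against dB/dB, 2 in dB/dB catalase-Tg against catalase-Tg, 1 in the interaction, 1 in the average transgene difference and 3 in the average dB/dB difference, where all probe sets gave, in the same order, 4.16%, 9.15%, 7.50%, 6.86%, 1.64%, 18.1% and 12.2%. Their median difference was -0.24 in catalase-Tg against wild type, with 27 of 38 below 0, and 0.25 in dB/dB catalase-Tg against catalase-Tg, with 24 above.

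Of these genes 6 were named for their small p in the averages. Samd9l, a growth regulator, was lower in dB/dB by the average (-0.70, SE 0.25, limma adjusted p = 0.383). It read 9.28, 10.78 and 10.62 in wild type, so that wild type 1 lay with the dB/dB arrays at 9.61, 9.81 and 9.43. Ifitm2, which hinders the entry of viruses into cells, had an average transgene difference of -1.03 (SE 0.37, limma adjusted p = 0.211). It read 10.93, 10.47 and 11.05 in dB/dB and 10.43, 9.43 and 8.91 in dB/dB catalase-Tg, without overlap. Mavs, the adaptor of both RNA sensors, and Stat3, a transcription factor of cytokine signalling, had average dB/dB differences of 0.39 (SE 0.15, adjusted p = 0.393) and 0.60 (SE 0.25, adjusted p = 0.399). Eif2ak2, the kinase PKR, and Tlr3, the endosomal sensor of double-stranded RNA, had average transgene differences of -0.37 (SE 0.17, adjusted p = 0.277) and -0.64 (SE 0.31, adjusted p = 0.296).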

How the data were processed

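The values are the deposited log2 expression levels of Affymetrix probe sets, made with GCRMA, which corrects background and normalizes between arrays, per the submitters' processing notes, which also name limma; versions, scanner settings and scan batches are not given in the sources used here. Of 45101 probe sets, 34945 carried 1 gene symbol, 932 several and 9160 none, and 64 were array controls. A probe set was tested if it lay above 4 (log2) on at least 3 of 12 arrays, which left 18144. The floor of the values is 2.30 and their maximum 15.66.

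Differences, standard errors and p-values come from limma 3.58.1 (R 4.3.3; lmFit and eBayes) on all 12 arrays with 1 mean per group, adjusted by Benjamini-Hochberg over the 18144 probe sets within each comparison, with a threshold of 0.05; the fits were tested on simulated data. The spread is estimated over all 4 groups, so the SE of a comparison of 2 groups also holds the spread inside the other groups. Values of every array are given for the members with the smallest p in a comparison of 2 groups and for the most abundant of each role. The members, the lists of other pathway genes and of markers and the roles were chosen with earlier results of these data known. The alternatives were other filters, centring, quantile normalization, a trended robust variance, array weights, only the 2 groups compared, 1 probe set per gene, a replicate block and each array left out. Leaving out the arrays of low weight or the wild-type arrays with Xist, and the marker scores as covariates, were added after seeing the data. The estimation of array weights stopped before its convergence tolerance was reached. Same-numbered samples deviated together in catalase-Tg against wild type (r = 0.40, 0.20 and 0.31) and in dB/dB catalase-Tg against catalase-Tg (0.61, 0.45 and 0.43). They did not in every pair of dB/dB against wild type (0.17, 0.15 and 0.10) and dB/dB catalase-Tg against dB/dB (-0.05, -0.13 and 0.11). Averaged over the other groups, wild type 1 and 2, catalase-Tg 1 and 3, dB/dB 3 and dB/dB catalase-Tg 1 deviated most like arrays of their own number. The remaining arrays deviated most like those of another number.

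Promoter sequences are RefSeq's for GRCm38.p6, where 29 of the 35 genes had an entry; Mx1, Mx2, Usp18, Parp14, Iigp1 and Tap2 had none in the table used.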

Additional observations from a re-analysis of the deposited data

How the results depend on the processing

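With all 12 arrays at equal weight, 0 of the 28 genes passed in any of the 7 comparisons, and this held for the other filters, median centring, quantile normalization, the trended robust variance, the fits on 2 groups, 1 probe set per gene and both covariates. With the replicate block it was also 0, and the block changed no call (lowest adjusted p = 0.16 in catalase-Tg against wild type and 0.0692 in the average transgene difference). With array weights, 12 passed in dB/dB catalase-Tg against dB/dB, 1 (Ifit2) in dB/dB catalase-Tg against catalase-Tg, 11 in the average transgene difference and 1 (Trim25) in the average dB/dB difference. Without the 3 arrays of low weight the counts were 6 in dB/dB against wild type, 12 in dB/dB catalase-Tg against dB/dB, 15 in the average transgene and 6 in the average dB/dB difference, and H2-D1 and Psmb8 turned to -0.73 and -1.19 (log2) in dB/dB catalase-Tg against dB/dB. Without wild type 2 and wild type 3 the counts were 1 in catalase-Tg against wild type and 2 in the average transgene difference, and the median of the former was -1.08. With the endothelial score the medians were -0.30 in dB/dB against wild type and -0.15 in catalase-Tg against wild type. When single arrays were left out, the count in the average dB/dB difference ran from 0 to 1 and was 0 in the other comparisons. The medians then ran from -0.10 to 0.48 in dB/dB against wild type, -0.96 to -0.54 in catalase-Tg against wild type, -0.97 to 0.39 in dB/dB catalase-Tg against dB/dB and 0.03 to 1.53 in dB/dB catalase-Tg against catalase-Tg. Beside the counts of 1, all probe sets gave 4.87% (dB/dB catalase-Tg against catalase-Tg, array weights), 10.9% (average dB/dB difference, array weights) and 6.87% (the same without wild type 1), and beside the 2 in the average transgene difference 18.6%. The cause of these changes was not tested. Ifit1 and Oasl2 lie near the floor of the scale on several arrays, where a difference is understated.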
